A study of Mus musculus with 6 samples.

Results

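The Hox genes encode homeodomain transcription factors that give cells their position along the head-to-tail axis. The 39 rows whose symbol is Hoxa, Hoxb, Hoxc or Hoxd followed by a paralogue number were taken from a table of 25239 genes, by name alone and without regard to their values. All 39 were placed on the mouse genome, 11 in the Hoxa cluster, 10 in Hoxb, 9 in Hoxc and 9 in Hoxd. The study sequenced total RNA from mouse primary pulmonary fibroblasts in 6 libraries, and its stated interest was genes and transposable elements that differ between 2 cell states. Of the libraries, 3 are labelled PF-nSene, for cells made senescent with Nutlin 3a, an inhibitor that frees p53 from Mdm2, and 3 are labelled PF-Quie, for quiescent cells. The labels describe 16 hours of the Cdk1 inhibitor RO3306 to align the cells, 48 hours of Nutlin 3a and last BI-2536, a Plk1 inhibitor, at 100 nM to remove dividing cells, 12 days in all. The quiescent samples carry identical treatment text. How their quiescence was reached is not stated there, and neither are the strain, the age and the number of the animals. Cells of both groups grew in 10% serum at 5% oxygen.

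In vertebrates the Hox genes lie in 4 clusters, and a gene's order along the chromosome matches where in the embryo it is switched on. Genes with low paralogue numbers act toward the head and those with high numbers toward the tail and the tips of the limbs. Fibroblasts taken from adult organs keep much of the pattern of the place they came from when they are cultured. Lung mesenchyme belongs to the foregut region, and Hoxa5 and genes of the anterior Hoxb cluster are known for their expression and roles there. HOX proteins bind DNA together with cofactors of the TALE family, Polycomb complexes keep silent Hox genes off, trithorax complexes keep active ones on, and retinoic acid induces the anterior ones. MicroRNAs of the miR-10 and miR-196 families are encoded inside the clusters and pair with Hox messages.

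Library totals over all genes were 93736593 to 109706025 counts, of which 3 rows dominated by ribosomal sequence (Rn45s, Lars2 and Mir6236) held 79.8% to 82.8%. All other genes summed to 18219831 to 21386546 counts. Levels are given as CPM, counts relative to the TMM-scaled gene total with those rows included, so the CPM values are low, and 3 counts in a library correspond to 0.0253 to 0.0335 CPM. The 39 Hox genes together held 3881 to 4196 counts in PF-nSene libraries and 5063 to 5611 in PF-Quie libraries, or 42.0 ± 1.34 CPM and 47.6 ± 0.279 CPM (SD, n = 3 each). Such floors cover counting error only.

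The fibroblast label was checked against marker genes. Of 12 pulmonary fibroblast markers all 12 passed the filter on low counts, and their summed level was 2227 to 2692 CPM in PF-nSene libraries and 3897 to 3983 CPM in PF-Quie libraries, with 4 higher and 7 lower. Epithelial markers summed to at most 0.185 CPM in PF-nSene libraries and 0.320 CPM in PF-Quie libraries, with Nkx2-1 at 0, and the lymphocyte gene Cd3e was at 0. Macrophage markers were higher in PF-nSene libraries, where all 7 summed to 10.7 to 13.99 CPM, against 3.94 to 4.23 CPM in PF-Quie libraries, and all 5 tested ones passed. Smooth muscle and pericyte markers summed to 42.1 to 69.3 CPM in PF-nSene libraries and 25.1 to 26.98 CPM in PF-Quie libraries, with 4 higher and 1 lower of 6. Skeletal muscle markers summed to 5.71 to 9.12 CPM in PF-nSene libraries and 2.07 to 2.88 CPM in PF-Quie libraries, with 1 tested marker higher (Acta1) and 1 lower (Myh1) and with Myod1, Myog and Ckm at 3 counts or fewer in every library. Neural markers summed to 1.62 to 2.78 CPM in PF-nSene libraries and 5.43 to 5.94 CPM in PF-Quie libraries, with 1 higher and 2 lower of 3 tested. Mesothelial markers summed to 10.3 to 12.7 CPM in PF-nSene libraries and 7.48 to 8.65 CPM in PF-Quie libraries, with 1 higher and 2 lower of 6. Endothelial markers summed to 3.43 to 5.01 CPM in PF-nSene libraries and 5.14 to 5.68 CPM in PF-Quie libraries, with 1 higher and 1 lower of 4 tested. Beside these counts, 36.7% of all tested genes were higher and 37.8% lower. The part of these markers in the Hox results was not tested.

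Both cell states used the same stretch of the Hox map, although Hoxb9 was low in PF-Quie libraries, at 17 to 30 counts. At a mean of at least 10 counts, 20 Hox genes were expressed in PF-nSene cells and 18 in PF-Quie cells, and the 18 were all among the 20. Among them were Hoxa2 to Hoxa7 without a gap, Hoxb2 to Hoxb9 without a gap, a few genes of Hoxc and a single gene of Hoxd, namely Hoxd8. Hoxc4 and Hoxc6 were the Hoxc genes that reached 10 counts in both states, while Hoxc5 and Hoxc13 reached it only in the mean of the PF-nSene libraries. The number was 17 in PF-Quie cells without PF-Quie replicate 2, because Hoxc6 then fell under 10 counts, and with 1 library of either group left out it was otherwise the same as with all 3. At a minimum of 30 counts the numbers were 15 in PF-nSene cells and 14 in PF-Quie cells, Hoxb9 making the difference.

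Apart from Hoxc13, the posterior end of each cluster was at or near 0 counts, and so were Hoxb1 and the anterior Hoxd genes. Of the 39 genes, 19 failed the filter on low counts, and 7 of these had no count in any library: Hoxa11, Hoxa13, Hoxb1, Hoxc11, Hoxc12, Hoxd10 and Hoxd12. The other 12 had at most 5 counts in any library, and the largest sum over the 6 libraries was 25, for Hoxd4. Hoxd4 had 2, 5 and 3 counts in PF-nSene libraries and 5 in each PF-Quie library. Hoxa9, next to the silent end of the expressed Hoxa block, had 4, 1 and 4 counts in PF-nSene libraries and 0, 1 and 1 in PF-Quie libraries. Hoxa10, Hoxb13, Hoxc8, Hoxc9, Hoxc10, Hoxd1, Hoxd3, Hoxd9, Hoxd11 and Hoxd13 complete the untested genes.

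**Figure D1:**
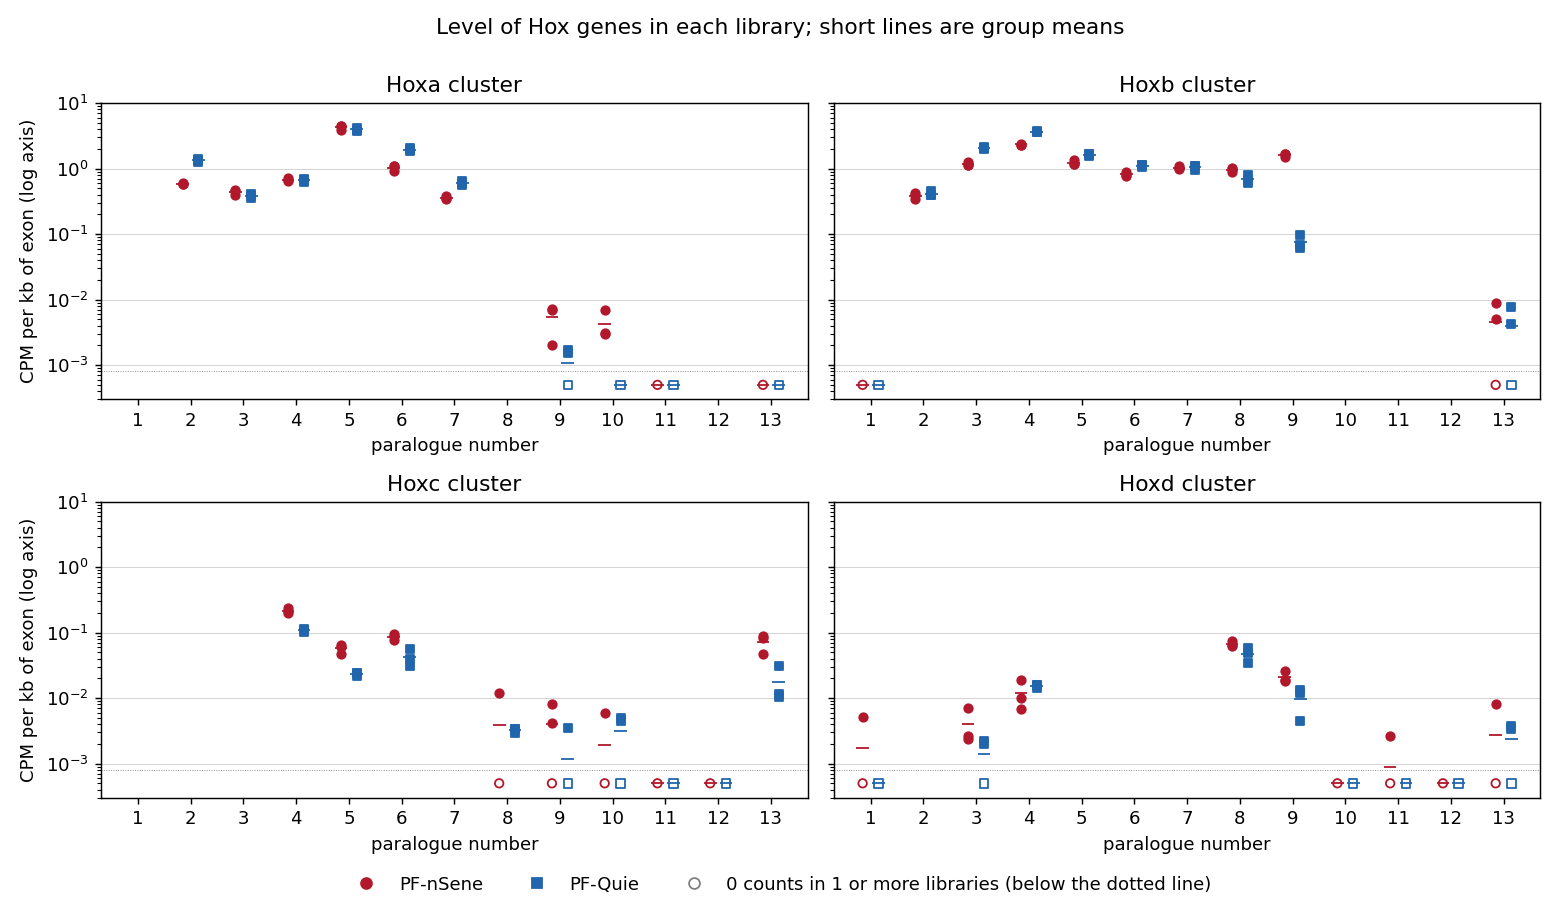
Level of the Hox genes in every library, in CPM per kilobase of exon on a logarithmic axis, by cluster and paralogue number, with PF-nSene points left of PF-Quie points, a short line at each group mean and open symbols under the dotted line for libraries at 0. Points lie high for Hoxa2 to Hoxa7 and Hoxb2 to Hoxb8, and for Hoxb9 in PF-nSene libraries only. Hoxb9 shows the widest gap between the groups among the genes drawn that passed the filter.

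The Hoxb cluster gave most of the Hox counts and Hoxa most of the rest. Hoxb held 61.0% of them in PF-nSene libraries and 62.9% in PF-Quie libraries, and Hoxa 35.6% and 35.5%. Hoxc had 2.73% in PF-nSene libraries and 1.08% in PF-Quie libraries, and Hoxd had 0.695% and 0.434%. In summed level, Hoxa had 14.96 ± 0.988 CPM in PF-nSene libraries and 16.9 ± 0.317 CPM in PF-Quie libraries, and Hoxb had 25.6 ± 0.623 CPM and 29.99 ± 0.525 CPM (SD, n = 3 each). Hoxc summed to 1.15 ± 0.105 CPM in PF-nSene libraries and 0.516 ± 0.0465 CPM in PF-Quie libraries. By paralogue number the summed level peaked at group 5, with 11.6 CPM in PF-nSene libraries and 12.1 CPM in PF-Quie libraries. Groups 3 and 4 followed, with 7.62 and 7.70 CPM in PF-nSene libraries and 11.1 and 10.8 CPM in PF-Quie libraries. Group 9, which is nearly all Hoxb9, had 4.21 CPM in PF-nSene libraries and 0.227 CPM in PF-Quie libraries. These sums are descriptions and were not tested.

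Per kilobase of exon, the scale on which genes can be set side by side, Hoxa5 was first and Hoxb4 next in both groups. Hoxa5 had a mean level of 4.25 CPM per kilobase in PF-nSene libraries and 3.99 in PF-Quie libraries, and Hoxb4 had 2.35 and 3.67. Hoxb9 was at place 3 of the 39 in PF-nSene libraries, with 1.60 CPM per kilobase, and at place 16 in PF-Quie libraries, with 0.0767. Hoxa2 was at place 11 in PF-nSene libraries and place 6 in PF-Quie libraries, and Hoxb5, Hoxb6, Hoxb7, Hoxb8 and Hoxb3 moved by at most 2 places. Over the 20 tested genes, the Pearson correlation of log2 levels per kilobase, with 0.01 added, was 0.991 to 0.996 between PF-nSene libraries and 0.991 to 0.996 between PF-Quie libraries. Between a PF-nSene and a PF-Quie library it was 0.840 to 0.884, and 0.954 to 0.973 when Hoxb9 was left out. The points share their libraries and lengths, and genes are not replicates, so these values only describe the profile.

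Of the 20 tested Hox genes, 6 rose, 7 fell and 7 did not pass the test in PF-nSene against PF-Quie cells, by edgeR's quasi-likelihood test with Benjamini-Hochberg adjustment over all tested genes. Across all 14065 tested genes, 36.7% were called higher and 37.8% lower, 74.5% in all, against 30%, 35% and 65% of the tested Hox genes, which is below the share of all tested genes. Libraries of the groups did not overlap for 14 of the 20, against 78.3% of all tested genes. A change of at least 2-fold was found for 4 higher and 1 lower Hox gene, and for 11.0% and 14.3% of all tested genes. Of the 4 higher ones, Hoxc5 and Hoxc13 passed the filter on low counts through the PF-nSene libraries alone, so they had to differ. They are also among the 6 that rose. The median log2 fold change was 0.05 over the tested Hox genes and -0.02 over all tested genes. In RNA from a whole culture, fewer cells that use a gene and less RNA of it per cell cannot be told apart.

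The directions fell into stretches along the clusters. In Hoxa the 3 genes that fell were Hoxa2, Hoxa6 and Hoxa7, in Hoxb the 4 that fell were the contiguous Hoxb3, Hoxb4, Hoxb5 and Hoxb6, and the 2 that rose were the neighbours Hoxb8 and Hoxb9. All 4 tested Hoxc genes rose, namely Hoxc4, Hoxc5, Hoxc6 and Hoxc13. Hoxc5 and Hoxc13 passed the filter on low counts through the PF-nSene libraries alone, so they had to differ, and their calls are no support for a direction of the cluster.

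**Figure D2:**
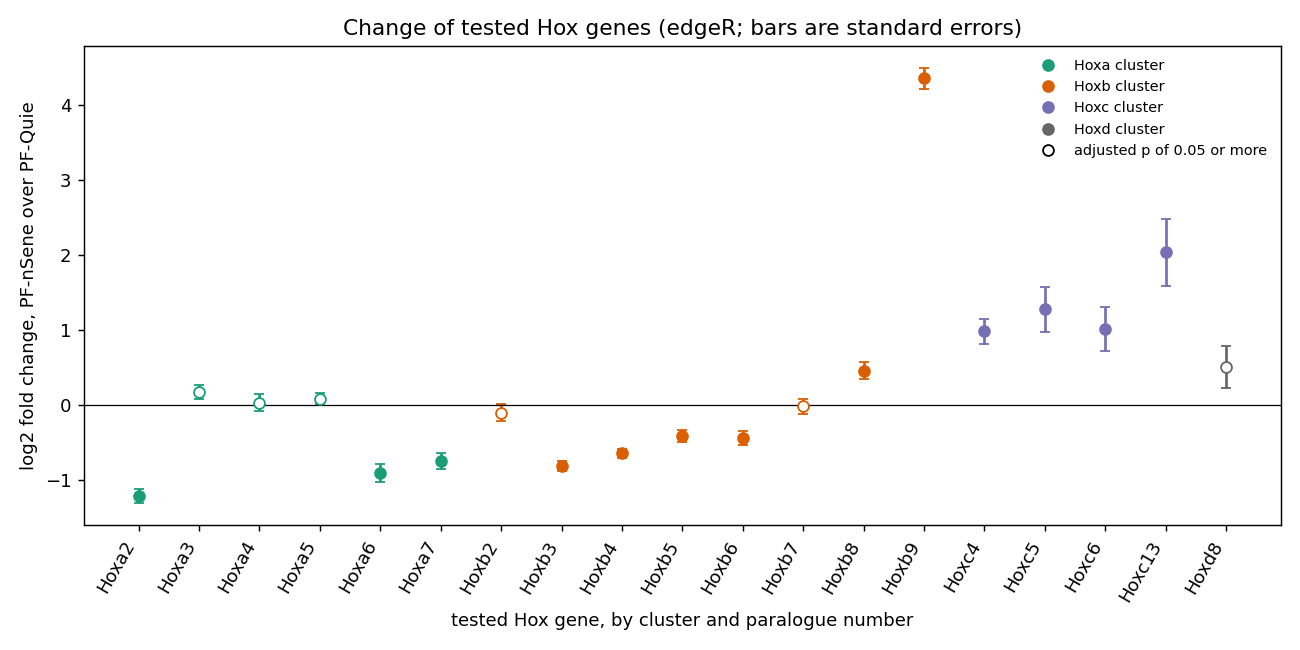
Log2 fold change of tested Hox genes, PF-nSene over PF-Quie, in cluster and paralogue order, with bars of 1 standard error, colours for clusters and open symbols for genes that did not pass the test. Hoxb9 stands at 4.36, the Hoxb3 to Hoxb6 stretch and Hoxa2, Hoxa6 and Hoxa7 lie below 0, and the Hoxc genes lie above 0.

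Hoxb9, which shapes the thoracic ribs in mice, was the member that differed most. It had 4.25, 3.88 and 4.25 CPM in PF-nSene libraries and 0.179, 0.253 and 0.160 CPM in PF-Quie libraries. Every PF-nSene library was far above every PF-Quie library, and in raw counts the groups had 347 to 437 and 17 to 30. The fold was 20.6, or 4.36 on the log2 scale (standard error 0.14, edgeR's quasi-likelihood test, adjusted p = 2.9e-10). Among all 14065 tested genes it took place 131 by log2 fold change. It made up 9.83 ± 0.787% of all Hox counts in PF-nSene libraries and 0.415 ± 0.106% in PF-Quie libraries (SD, n = 3 each). Its exons, on the plus strand of chr11:96271457-96276595 (ENSMUSG00000020875, GRCm38), share no base with another annotated row. The log2 fold change was 4.07 to 4.59 over all alternatives run.

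Hoxb8 lies on the anterior side of Hoxb9, 5.31 kb away, and is known in mice for its role in the microglia that restrain grooming. It had 2.33, 2.58 and 2.65 CPM in PF-nSene libraries and 1.79, 1.60 and 2.11 CPM in PF-Quie libraries. The groups did not overlap, and the gap between the nearest libraries was small beside that of Hoxb9. Hoxb8 was 1.38-fold higher (log2 fold change 0.46, standard error 0.11, adjusted p = 0.0028). When libraries were scaled by their plain totals the call was lost, at a log2 fold change of 0.17 and an adjusted p of 0.20. Per kilobase, the level of Hoxb9 was 1.86, 1.54 and 1.64 times that of Hoxb8 in PF-nSene libraries and 0.102, 0.162 and 0.0777 times in PF-Quie libraries, so the order of the 2 neighbours differed between the states in every library. Within a library such a ratio is free of the scaling.

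The next gene, Hoxb7, marks the end of the rise. It had 1.67, 1.54 and 1.56 CPM in PF-nSene libraries and 1.67, 1.46 and 1.71 CPM in PF-Quie libraries. These values overlapped, and the 95% interval of the log2 fold change was -0.22 to 0.19 (adjusted p = 0.90). Hoxb7 lies only 1.31 kb from Hoxb8.

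The middle of the Hoxb cluster was lower in PF-nSene cells. Hoxb4, best known for its effect on blood stem cells, had 5.99, 6.15 and 5.96 CPM in PF-nSene libraries and 9.65, 9.24 and 9.37 CPM in PF-Quie libraries. The groups were well apart, with a log2 fold change of -0.64 (standard error 0.06, adjusted p = 1e-06), or 1.56-fold lower. Hoxb3, a pharyngeal and hindbrain patterning gene, had 4.77, 5.32 and 4.84 CPM in PF-nSene libraries and 9.05, 8.76 and 8.43 CPM in PF-Quie libraries. Here too the groups were apart, and the gene fell by 0.81 on the log2 scale (standard error 0.07, adjusted p = 5.1e-07). Hoxb3 shares 52.9% of its exon bases with the antisense row Hoxb3os on the other strand, and no source used here gives the use of strand in the authors' counting, so its value is uncertain.

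Hoxb5, which is expressed in branching lung mesenchyme, had 3.316, 3.71 and 3.23 CPM in PF-nSene libraries and 4.40, 4.61 and 4.60 CPM in PF-Quie libraries. All PF-nSene libraries were lower, and the gene fell by 0.41 on the log2 scale (standard error 0.08, adjusted p = 4.3e-04). Hoxb6, a gene of the thoracic level, had 1.53, 1.74 and 1.56 CPM in PF-nSene libraries and 2.20, 2.11 and 2.25 CPM in PF-Quie libraries, again without overlap. It fell by 0.44 on the log2 scale (standard error 0.09, adjusted p = 0.0012). Hoxb2, at the anterior end, did not pass, with a 95% interval of the log2 fold change of -0.32 to 0.12 and 121 to 150 counts in PF-nSene libraries and 146 to 166 in PF-Quie libraries. Of the Hoxb2 exon bases, 27.3% lie opposite Hoxb3os.

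**Figure D3:**
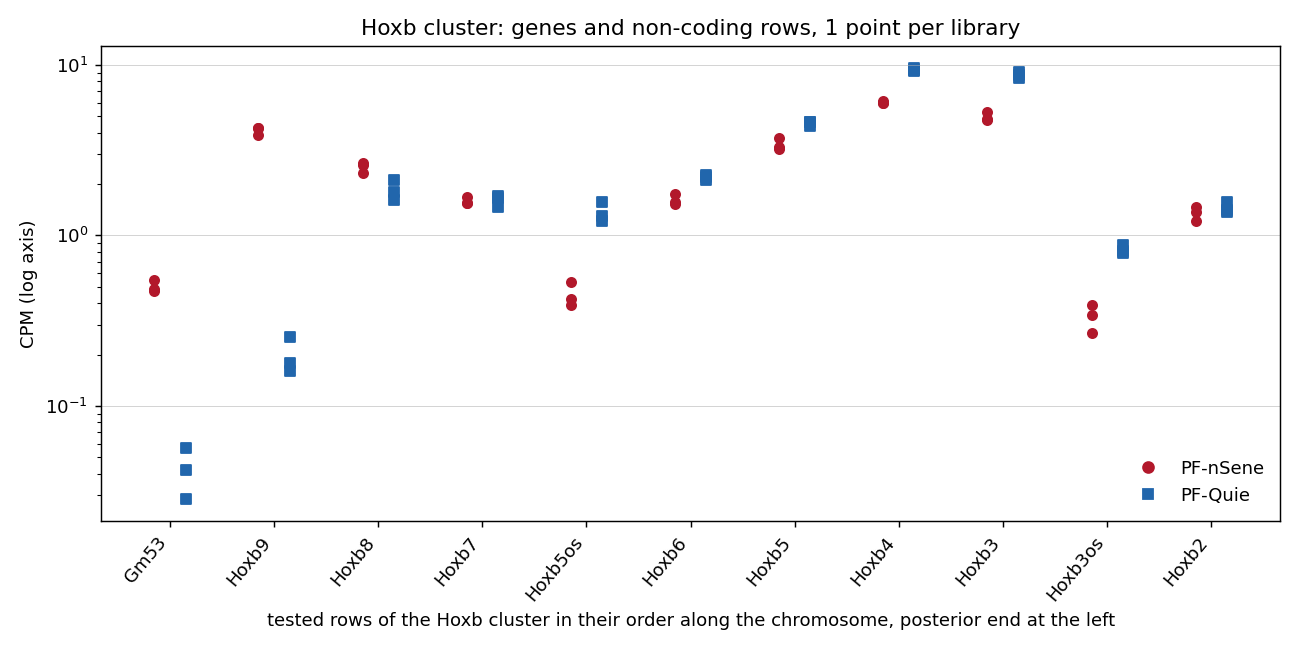
Tested rows of the Hoxb cluster in chromosome order, posterior end at the left, with the CPM of every library on a logarithmic axis and PF-nSene points left of PF-Quie points. From Gm53 through Hoxb9 to Hoxb8 the PF-nSene libraries are higher, at Hoxb7 and Hoxb2 the groups overlap, and from Hoxb6 to Hoxb3, with the antisense rows Hoxb5os and Hoxb3os, they are lower.

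Rows of the Hoxb cluster that are not Hox genes moved beside these genes. Gm53, an annotated long non-coding RNA on the posterior side of Hoxb9, had 47, 49 and 50 counts in PF-nSene libraries and 6, 5 and 3 in PF-Quie libraries. The groups were far apart, with a log2 fold change of 3.53 (standard error 0.28, adjusted p = 3.8e-07), although Gm53 passed the filter through the PF-nSene libraries alone and so had to differ. Mir196a-1 sits between Gm53, 0.295 kb away, and Hoxb9, 6.19 kb away. It had 8, 4 and 7 counts in PF-nSene libraries and 3, 1 and 2 in PF-Quie libraries, too few to be tested. Rows for microRNA genes count reads over the hairpin locus in total RNA and do not measure the mature microRNA. On the other side of the cluster, Hoxb5os had 53, 38 and 40 counts in PF-nSene libraries and 139, 144 and 166 in PF-Quie libraries. It fell by 1.60 on the log2 scale (standard error 0.16, adjusted p = 3.1e-06). Hoxb3os fell by 1.30 (standard error 0.17, adjusted p = 2.5e-05). Mir10a, beside Hoxb4, had 3, 3 and 1 counts in PF-nSene libraries and 13, 4 and 7 in PF-Quie libraries and was not tested.

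The mature sequences of these microRNA families, from RefSeq on GRCm38.p6, are shown because their seeds, bases 2 to 8 in capitals, fall into 2 groups that pair with different Hox messages.
miR-196a-5p, from Mir196a-1 at chr11:96265187-96265208 on the plus strand and also from Mir196a-2 in the Hoxc cluster: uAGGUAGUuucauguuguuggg
miR-196b-5p, from the Hoxa cluster: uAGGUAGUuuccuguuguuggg
miR-10a-5p, from chr11:96317186-96317208 on the plus strand: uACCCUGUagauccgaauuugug
miR-10b-5p, from the Hoxd cluster: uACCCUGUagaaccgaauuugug
Mir196a-2, Mir196b and Mir10b had 0 counts in all libraries, so the few reads counted for these rows were those of the Hoxb loci. Mir196b shares exon bases with Hoxa9 on the same strand. How reads shared by 2 rows were counted is not known, so its 0 is uncertain.

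In mouse embryos miR-196 is known to direct cleavage of the Hoxb8 message through a nearly complete match in its 3′ untranslated region. That match was found by a search of the GENCODE M21 transcripts, at bases 418 to 439 of the 845 bases of the Hoxb8 region, and is printed with the 21 of 22 bases that pair with miR-196a in capitals.
Hoxb8 site: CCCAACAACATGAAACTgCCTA
Hoxb8 was the single gene of 13044 tested genes with an annotated 3′ untranslated region to reach 21 pairs, and the next best Hox gene, Hoxd8, had 15. A perfect complement of the seed alone, ACTACCT on the message strand, occurred in 9 of the 39 Hox genes and in 7.05% of the 13044 genes, and the miR-10 complement ACAGGGT in 4 Hox genes and 14.9%. The 39 include untested Hox genes, among them Hoxa9, Hoxb1 and Hoxc8 of the 9, while the 13044 are tested genes only. The shares are therefore not of like sets. Hoxa7, which fell, held 4 seed matches, and Hoxb7, which did not pass, held 1. Both are printed with the seed match in capitals.
Hoxa7 site: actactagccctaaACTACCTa
Hoxb7 site: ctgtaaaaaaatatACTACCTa
A sequence match describes the letters and not a working site.

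The promoters of Hoxb8 and Hoxb4 are shown because these genes of one cluster moved in opposite directions. Each run is the 250 bases before the start, on the plus strand, from RefSeq on GRCm38.p6, with TATAAA and CCAAT in either orientation in capitals.
Hoxb8, chr11:96281655-96281904: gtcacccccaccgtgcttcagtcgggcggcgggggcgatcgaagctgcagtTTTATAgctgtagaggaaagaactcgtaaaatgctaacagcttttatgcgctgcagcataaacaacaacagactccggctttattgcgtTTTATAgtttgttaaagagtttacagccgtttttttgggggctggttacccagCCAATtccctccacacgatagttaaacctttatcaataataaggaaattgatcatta
Hoxb4, chr11:96318017-96318266: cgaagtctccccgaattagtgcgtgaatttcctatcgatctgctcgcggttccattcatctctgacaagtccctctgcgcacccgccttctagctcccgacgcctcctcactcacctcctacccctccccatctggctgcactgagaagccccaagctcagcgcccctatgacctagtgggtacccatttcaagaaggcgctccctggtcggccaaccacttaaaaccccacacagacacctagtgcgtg
Hoxb8 held 2 matches to TATAAA and 1 to CCAAT, and Hoxb4 held none of either. Across 32851 promoters of the same length, TATAAA was found in 12.4% and CCAAT in 33.8%, both strands searched, and in 4 and 14 of the 24 promoters of the 22 Hox genes in that table. The joint HOX and PBX motif TGATTNAT was found in 2.82% of all promoters and in 2 of the 24, Hoxd11 and Hoxa2. TGANTCA, the AP-1 motif, was found in 6.75% of all promoters and in 1 of the 24.

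In the Hoxa cluster, the Hox gene with the highest level per kilobase did not pass the test. Hoxa5, without which mouse lungs and tracheas form poorly, had 8.29, 8.43 and 7.20 CPM in PF-nSene libraries and 7.15, 7.92 and 7.40 CPM in PF-Quie libraries. The values overlapped and the 95% interval of the log2 fold change was -0.06 to 0.23 (adjusted p = 0.30). Without PF-nSene replicate 3 the gene passed at 0.16 (adjusted p = 0.018), and scaling by library totals gave -0.21 (adjusted p = 0.036). Its call thus depended on both choices and its direction on the scaling. Relative to the median of all tested genes, Hoxa5 stood at 0.11 by TMM and at 0.11 by library totals. Hoxa4, its neighbour, had 1.13, 1.06 and 1.05 CPM in PF-nSene libraries and 0.997, 1.06 and 1.11 CPM in PF-Quie libraries, with an interval of -0.19 to 0.25. Hoxa3 did not pass either, with a log2 fold change of 0.18, but passed at 0.25 (adjusted p = 0.017) without PF-nSene replicate 3. Hoxa3 shares 18.2% of its exon bases with rows on the other strand.

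In the same cluster, 3 genes were lower in PF-nSene cells, on either side of Hoxa3 to Hoxa5. Hoxa2, which patterns the hindbrain and the pharyngeal arches, had 1.02, 1.07 and 1.02 CPM in PF-nSene libraries and 2.50, 2.28 and 2.43 CPM in PF-Quie libraries. It was 2.31-fold lower, the groups far apart, with a log2 fold change of -1.21 (standard error 0.10, adjusted p = 4.3e-07). Hoxa6, a gene of the level where neck passes into thorax, had 0.952, 0.972 and 0.797 CPM in PF-nSene libraries and 1.67, 1.63 and 1.79 CPM in PF-Quie libraries. It fell by 0.90 on the log2 scale (standard error 0.12, adjusted p = 2.4e-05). Hoxa7 had 0.972, 1.08 and 1.01 CPM in PF-nSene libraries and 1.65, 1.84 and 1.65 CPM in PF-Quie libraries, without overlap. It fell by 0.75 on the log2 scale (standard error 0.11, adjusted p = 6.2e-05), and 20.4% of its exon bases lie opposite Hoxaas3. Per kilobase, Hoxa5 stood at 7.67, 7.43 and 6.67 times Hoxa2 in PF-nSene libraries and at 2.70, 3.29 and 2.88 times in PF-Quie libraries.

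Rows of the Hoxa cluster that are not Hox genes included both directions. Hoxaas3 fell by 1.47 on the log2 scale (standard error 0.27, adjusted p = 3.8e-04), with 7 to 15 counts in PF-nSene libraries and 31 to 46 in PF-Quie libraries. Hoxaas2 fell by 1.05 (standard error 0.19, adjusted p = 3.0e-04). The row 5730596B20Rik, annotated as protein-coding, fell by 0.54 (standard error 0.12, adjusted p = 0.0013). Hotairm1, a non-coding RNA studied in human blood cells, had 62, 79 and 78 counts in PF-nSene libraries and 49, 73 and 57 in PF-Quie libraries. Its CPM values did not overlap, by a narrow gap, and the log2 fold change of 0.48 (adjusted p = 0.028) no longer passed without PF-nSene replicate 2, PF-Quie replicate 1 or PF-Quie replicate 3. Gm15050 did not pass, at -0.37 (adjusted p = 0.0902), but passed at -0.53 (adjusted p = 0.039) without PF-nSene replicate 1. Of 21 such rows in the 4 clusters 8 were tested, with 2 higher and 5 lower, beside 36.7% and 37.8% of all tested genes. Hotair and Haglr were at 0 in every library.

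Hoxc genes were scarce in both states. The tested ones were higher in PF-nSene cells, but Hoxc5 and Hoxc13 passed the filter on low counts through the PF-nSene libraries alone. Those 2 therefore had to differ, and their values are no support for a direction of the cluster. Hoxc4 had 60, 46 and 57 counts in PF-nSene libraries and 30, 35 and 28 in PF-Quie libraries, without overlap, and was 1.98-fold higher (log2 fold change 0.99, standard error 0.17, adjusted p = 2.8e-04). Hoxc5 had 20, 13 and 19 counts in PF-nSene libraries and 8 in each PF-Quie library, with a log2 fold change of 1.28 (standard error 0.30, adjusted p = 0.0022). The Hoxc4, Hoxc5 and Hoxc6 genes pattern the region where neck meets thorax. Hoxc6 had 23, 19 and 19 counts in PF-nSene libraries and 10, 16 and 8 in PF-Quie libraries, a log2 fold change of 1.02 (standard error 0.29, adjusted p = 0.0078). It lost its call under library totals, at 0.72 (adjusted p = 0.053). Hoxc5 shares 5.37% of its exon bases with Hoxc10 on the same strand.

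Hoxc13, a regulator of hair and nail keratins at the posterior end of its cluster, was set apart from the others by position. It had 22, 18 and 12 counts in PF-nSene libraries and 8, 3 and 3 in PF-Quie libraries, and passed the filter through the former alone. The groups did not overlap, with PF-Quie replicate 1 nearest to PF-nSene libraries, and the log2 fold change was 2.04 (standard error 0.45, adjusted p = 0.0014). Without PF-Quie replicate 1 it was 2.68. Between Hoxc6 and Hoxc13 no gene had more than 3 counts in any library. In the Hoxd cluster, Hoxd8 had 17, 18 and 18 counts in PF-nSene libraries and 17, 11 and 14 in PF-Quie libraries. Its CPM values did not overlap, but it did not pass, with an interval of the log2 fold change of -0.05 to 1.07.

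Genes beside the clusters were read as a local comparison. The 3 nearest tested protein-coding genes on each side of each cluster gave 24 genes, 60.7 to 910 kb from the cluster ends. Of these, 9 rose and 8 fell, beside 36.7% and 37.8% of all tested genes, with a median log2 fold change of 0.08. Under library totals 2 of the 24 rose. On the anterior side of Hoxb, Nfe2l1, a stress-response transcription factor 449 kb away, had a log2 fold change of 0.63. Snx11, a sorting nexin 399 kb away on that side, had 0.29. On the posterior side, which holds Hoxb9, Ube2z had 0.34 at 129 kb and Snf8 0.20 at 147 kb. Atp5g1, 119 kb away on that side, did not pass, at 0.20. Next to Hoxd, Mtx2, a mitochondrial import gene, had 0.26, and next to Hoxc, Cbx5, which encodes heterochromatin protein HP1 alpha, had -0.45. Under library totals Snx11 stood at -0.01, Mtx2 at -0.04, Snf8 at -0.10 and Atp5g1 at -0.10.

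The TALE genes, a family that includes the cofactors of HOX proteins but also Tgif1 and Tgif2, moved in both directions. Of 11, all tested, 2 rose and 5 fell, beside 36.7% and 37.8% of all tested genes, with a median of -0.06, and Pknox1, 1 of the 2 that rose, did so at 0.20 and lost its call under library totals, where it was -0.10, under upper quartile scaling, and without PF-Quie replicate 1 or 2. Meis1 had 17.5, 16.3 and 17.4 CPM in PF-nSene libraries and 28.5, 27.8 and 29.4 CPM in PF-Quie libraries, a log2 fold change of -0.74. Pknox2 fell by 1.74 on the log2 scale. Tgif1, a TALE repressor of TGF-beta signalling, rose by 1.74. Meis2 and Pbx3 did not pass, at -0.06 and 0.13.

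Chromatin regulators of the clusters moved in both directions. Of 14 trithorax-group and related genes, 5 rose and 4 fell, beside 36.7% and 37.8% of all tested genes. This balance turned to 2 and 8 under library totals. The 5 that rose were 3 without PF-Quie replicate 1 and 3 without PF-Quie replicate 3. Kdm6b, which removes the Polycomb mark, rose by 1.44 and the histone methyltransferase Dot1l by 1.28, while Psip1 and Men1, which tether the Kmt2a complex to chromatin, fell by 1.12 and by 0.77. Kmt2a itself was at 0.19, and at -0.10 under library totals. Of 30 Polycomb genes, 11 rose and 8 fell, beside the same shares of all tested genes, with a median of -0.02. These counts became 6 and 18 under library totals. Jarid2 and Aebp2, accessory factors of the complex that deposits the mark, rose by 1.41 and 1.11. Phf19, another accessory factor, fell by 2.31, the chromobox gene Cbx6 by 1.62, and the methyltransferase gene Ezh2 by 0.42 (adjusted p = 5.1e-05).

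Genes that make, bind or sense retinoic acid moved in both directions. Of 21, 14 were tested, of which 5 rose and 6 fell, beside 36.7% and 37.8% of all tested genes. Aldh1a3, which makes retinoic acid, averaged 52.9 ± 8.49 CPM in PF-nSene libraries and 6.09 ± 0.132 CPM in PF-Quie libraries (SD, n = 3 each), a log2 fold change of 3.12. Its relative Aldh1a1 averaged 3.89 ± 0.817 CPM in PF-nSene libraries and 29.8 ± 1.78 CPM in PF-Quie libraries, a log2 fold change of -2.94. The receptor gene Rarb rose by 1.24. The Cdx genes, which drive posterior Hox genes in the embryo, were too low to be tested.

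Other genes that mark lung and foregut mesenchyme were set beside the Hox genes. Of 32, 27 were tested, of which 10 rose and 14 fell, beside 36.7% and 37.8% of all tested genes, with a median of -0.38. Tbx4 and Tbx5, which the embryonic lung bud needs, were lower in PF-nSene cells. Tbx4 averaged 3.04 ± 0.337 CPM in PF-nSene libraries and 14.8 ± 0.801 CPM in PF-Quie libraries (SD, n = 3 each), a log2 fold change of -2.28, and Tbx5 had -1.62. Tcf21 had a log2 fold change of -1.70, Meox2 of -2.95, Gli2, a hedgehog effector, of -2.97 and Gata5 of -4.68, all of which passed. In the other direction, Foxf1, a hedgehog target in lung mesenchyme, rose by 1.76, Prrx1 by 1.26 and Tbx3 by 1.24. Among the genes of this list named here, Gata5 stood above Hoxb9 in absolute log2 fold change. Meox2, Gli2 and Tbx4 stood between Hoxb9 and Hoxc13.

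Transcription factors that mark head, limb and other regions were mostly too low to test. Of 52, 32 failed the filter, 9 of them at 0 in every library, and of the 20 tested 13 rose and 2 fell. None of the 20 passed the filter through PF-nSene libraries alone or PF-Quie libraries alone. The part of the filter in this count was not tested. Over all tested genes, 36.7% rose and 37.8% fell. In this list, the 2 that fell were 1 without PF-nSene replicate 1 or without PF-Quie replicate 3. Foxc2 rose by 1.60, averaging 2.31 ± 0.0850 CPM in PF-nSene libraries and 0.764 ± 0.0529 CPM in PF-Quie libraries (SD, n = 3 each), and Foxc1 fell by 0.30.

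**Figure D4:**
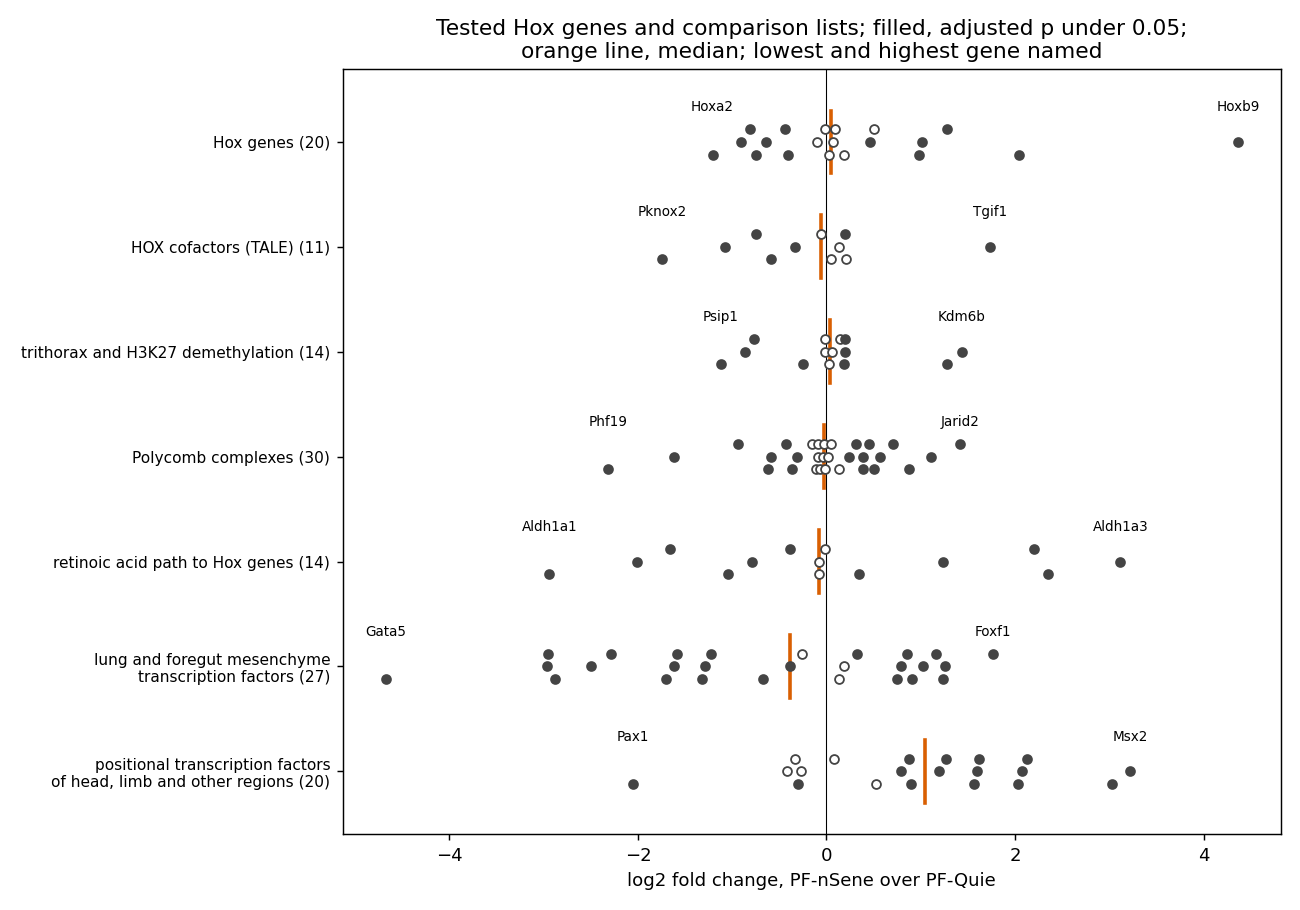
Log2 fold changes, PF-nSene over PF-Quie, of the tested genes of each list. Hox genes come first, then TALE genes, chromatin regulators, retinoic acid genes and regional transcription factors. Each point is a gene, filled where it passed the test. Orange lines are the list medians, and the lowest and highest gene of each list are named. Medians lie near 0 for the Hox genes, at -0.38 for the lung and foregut factors and at 1.04 for factors of other regions.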

How the data were processed

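Raw counts for each gene symbol were deposited by the authors as whole numbers. In the submitters' processing notes stand the build mm10, edgeR 3.32.1 and limma 3.46.0, with no role. Not given in the sources used here are the aligner, the counter and its strand setting. RNA depleted of ribosomal RNA went into a directional kit and was read in pairs of 100 bp, per the labels' protocols. The test was that of edgeR 4.0.16 (R 4.3.3), run on the counts of all genes (filterByExpr by group, minimum count 10, TMM, robust quasi-likelihood fit and F test, Benjamini-Hochberg adjustment, threshold 0.05). Standard errors are the log2 fold change over the square root of F, and 95% intervals span 1.96 of them on each side. The pipeline was tested on simulated data. Exon lengths, positions and 3′ untranslated regions came from GENCODE M21 on GRCm38, the assembly of mm10, which placed 24366 of 25239 symbols. Alternatives were DESeq2 1.42.0, limma-voom with limma 3.58.1, other filters and scalings, a replicate block, and leaving out each library once.

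Replicates are separate samples, and since the labels name no separate cultures or animals, p-values cover only the spread among these libraries, which may be technical. No pair of replicates agreed within sampling noise. Values were printed per library for the 12 Hox genes highest per kilobase over all libraries and for other called Hox genes changed at least 2-fold, and more briefly for other tested ones. From each list, up to 3 called genes per direction at a mean log2 CPM of at least 0 and some central members were named. The members and the lists were chosen with earlier results of these data known. Transposable element counts were not used here. Some genes of the table and of the lists, 1 Hox gene among them, are counted but not reported by name here.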

Additional observations from a re-analysis of the deposited data

How the results depend on the processing

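Of the 19 tested Hox genes reported by name or value, 12 kept their direction and their side of the threshold under each of the 15 alternatives in which they were tested, but 4 of these (Hoxc4, Hoxc5, Hoxc13 and Hoxd8) were not tested at a minimum count of 50. Library totals moved the median of all genes to -0.32, with 2952 genes higher and 7435 lower (5158 and 5316 by TMM), and upper quartile factors moved it to -0.12. Under library totals 4 Hox genes rose and 10 fell, Hoxb2 passed at -0.40 (adjusted p = 0.010) and Hoxb7 at -0.31 (adjusted p = 0.026), and the log2 ratio of summed levels was -0.48 for Hoxa, -0.53 for Hoxb, 0.85 for Hoxc and 0.20 for Hoxd, against -0.18, -0.23, 1.15 and 0.50 by TMM. Totals without the ribosomal rows gave -0.40, -0.45 and 0.93 for the first 3. A minimum count of 50 left 2 Hox genes higher, since 4 Hoxc genes were then not tested. Leaving out 1 library gave 6 to 8 Hox genes higher, the 8 without PF-nSene replicate 3, and 7 lower each time.

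The count of risen TALE genes was 1 and of risen trithorax-group genes 2 under both upper quartile factors and library totals. Under library totals alone, 8 trithorax-group, 18 Polycomb and 4 other-region genes fell, and 6 Polycomb and 2 flanking genes rose. With 1 library left out the lowest and highest counts were 1 and 3 for risen TALE genes, 3 and 5 for risen trithorax-group genes, 1 and 2 for fallen other-region genes and 1 and 2 for risen non-Hox rows of the clusters. That last count was 1 under upper quartile factors, library totals, a minimum count of 50 and DESeq2. The cause was not tested.

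Signs turned for genes near 0. Under library totals these were Hoxa3 (-0.12), Hoxa4 (-0.27), Hoxa5 (-0.21), Snx10 (-0.14), Hibadh (-0.0272), Snx11 (-0.0131), Cbx1 (-0.29), Atp5g1 (-0.10), Snf8 (-0.10), Mtx2 (-0.0419), Lnpk (-0.14), Pknox1 (-0.10), Pbx3 (-0.17), Kmt2d (-0.10) and Kmt2a (-0.10). Under upper quartile factors they were Hoxa4 (-0.0626), Hoxa5 (-0.00612) and Cbx1 (-0.0899), and under a minimum count of 50 Cbx1 (-0.00636). Relative to the median of all tested genes under each scaling, no tested Hox gene changed sign between the scalings. With a library left out, the values ran from -0.0128 to 0.0682 for Hoxa4, -0.0855 to 0.0280 for Hoxb7, -0.0384 to 0.0450 for Cbx1 and -0.0717 to 0.0127 for Atf2.

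No pairing by replicate number is stated in the labels. Same-numbered libraries correlated at 0.0512, -0.0101 and 0.0579 in their deviations from the group means. Differently numbered libraries of the 2 groups correlated at -0.101 to 0.0562. With 3 libraries a group, these values cannot decide whether same-numbered samples share a source. With the replicate block, 6 Hox genes rose and 7 fell, and over all genes 5124 rose and 5281 fell.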
